A study of Homo sapiens with 9 samples.

Results

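The imprinted neighbourhood of PEG10 on chromosome 7 was followed in OVCAR4 cells after knockdown of MPZL3, an immunoglobulin-domain transmembrane protein. The neighbourhood was taken as 6 genes of the count table matched by symbol, CASD1, SGCE, PEG10, PPP1R9A, PON3 and PON2, out of 58735 genes in all. PEG10 was picked because its count was among those that fell most in the knockdown libraries, so its differences from the control are given as a description with no test, and the other 5 genes were picked because they lie beside it. Of the 6 genes, 5 passed the filter on low counts and PON3 did not. OVCAR4 is an established line from a human ovarian serous adenocarcinoma. Its cells carried a lentiviral scramble shRNA (scr control, n = 3 libraries), shMPZL3 #1 (n = 3) or shMPZL3 #2 (n = 3), and all 9 cultures were selected with puromycin for 3 days. The labels give the control a wild-type genotype and the others a knockdown of MPZL3. The knockdown libraries therefore differ from the control in the hairpin, each hairpin is 1 sequence, and the transduced cells were sequenced in bulk, so that fewer cells of a type and less RNA per cell cannot be told apart.

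PEG10 (paternally expressed gene 10) is a domesticated retrotransposon gene, expressed from the paternal allele, and it is known for its role in the placenta and for raised expression in several carcinomas. SGCE, which encodes epsilon-sarcoglycan, is divergently transcribed from the same imprinted control region and is also paternally expressed. The flanking genes encode a sialic acid O-acetyltransferase (CASD1), the actin-binding protein neurabin, which targets protein phosphatase 1 (PPP1R9A), and the lactonases paraoxonase 2 and paraoxonase 3 (PON2 and PON3). Imprinting of PPP1R9A is known from some tissues, while CASD1 and the paraoxonase genes are generally described as weakly imprinted or not imprinted in human cells.

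On GRCh38 with GENCODE 29, the 6 genes spanned 926 kb of chromosome 7. In chromosome order they were CASD1 (94509219 to 94557019, plus strand), SGCE (94524204 to 94656572, minus strand), PEG10 (94656325 to 94669695, plus strand), PPP1R9A (94907202 to 95296415, plus strand), PON3 (95359944 to 95396368, minus strand) and PON2 (95404863 to 95435329, minus strand). The start sites of PEG10 and SGCE in RefSeq lay 192 bases apart, and the gene bodies overlapped by 248 bases, of which 219 were exonic in both. The libraries were made without strand information, so reads in those 219 bases cannot be assigned to one gene by strand. They made up 3.27% of the exonic bases of PEG10 and 1.05% of those of SGCE. SGCE and CASD1 overlapped over 32816 bases with no shared exonic base. PON2 shared 190 exonic bases with the antisense gene AC005021.1, which had 11 counts in all libraries together against 23186 for PON2, and the 4 small genes inside PPP1R9A shared no exonic base with it and had at most 9 counts each.

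PEG10 holds a slippery heptamer, at which ribosomes shift frame from the gag-like to the pol-like reading frame. Transcripts of the neighbours were not searched for this heptamer. In transcript PEG10-202 of GENCODE 29 (6618 bases, 2 exons) it lay in exon 2, starting at base 954 of the 975 coding bases of the gag-like frame, at the base 3 position of its codon. It was present in 6 of the 9 annotated transcripts. The window below, chr7:94664480-94664534 on the plus strand of GRCh38, is shown because a gene-level count of RNA cannot tell the products of both reading frames apart. Capitals mark the heptamer (bases 94664510 to 94664516), and the window ends with the stop codon of the gag-like frame.

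PEG10: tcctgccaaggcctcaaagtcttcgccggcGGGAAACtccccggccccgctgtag

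Promoter windows, from 250 bases before to 50 bases after the RefSeq start on GRCh38.p14, were matched for 4 of the 6 genes, CASD1, PPP1R9A, PON2 and PON3. The windows of the adjacent paraoxonase genes are shown because one of the pair was among the well expressed genes and the other had no count. Capitals mark each CG dinucleotide.

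PON2: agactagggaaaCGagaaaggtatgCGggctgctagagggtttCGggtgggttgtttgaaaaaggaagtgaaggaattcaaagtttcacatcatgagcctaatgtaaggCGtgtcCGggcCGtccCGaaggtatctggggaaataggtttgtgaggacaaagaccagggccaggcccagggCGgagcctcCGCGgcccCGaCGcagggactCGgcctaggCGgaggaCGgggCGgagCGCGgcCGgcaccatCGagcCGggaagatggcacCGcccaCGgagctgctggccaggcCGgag

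PON3: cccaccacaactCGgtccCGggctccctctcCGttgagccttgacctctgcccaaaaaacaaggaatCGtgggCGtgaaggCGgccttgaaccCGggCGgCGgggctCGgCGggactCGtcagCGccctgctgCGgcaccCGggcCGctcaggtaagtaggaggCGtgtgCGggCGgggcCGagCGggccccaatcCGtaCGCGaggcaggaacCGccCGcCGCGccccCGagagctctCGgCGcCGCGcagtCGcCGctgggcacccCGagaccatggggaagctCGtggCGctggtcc

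The PON2 window (chr7:95434979-95435278, minus strand) held 24 CG, and 33.9% of the 35116 promoter windows held as many. The PON3 window (chr7:95396326-95396625, minus strand) held 38 CG, a number reached by 9.91% of windows, against a median of 14. CASD1 had 26 and PPP1R9A 15, which 30.1% and 48.9% of windows reached. None of the 4 windows held the letters TATAAA on either strand, which 11.5% of all windows did.

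The libraries held 15040102 to 27835841 counts, and the check of the labels came out in their direction. MPZL3 itself had 536, 611 and 587 normalized counts in the scr control, 119, 143 and 123 with shMPZL3 #1, and 284, 380 and 271 with shMPZL3 #2. Here and below, a normalized count is a count scaled by the library's TMM-adjusted size to the mean of those sizes. All 6 knockdown libraries lay below the 3 control libraries, at a mean of 22.2% of the control with shMPZL3 #1 and 54.0% with shMPZL3 #2. Of 9 markers of ovarian carcinoma epithelium, 7 had at least 100 counts in every library, while WT1 had 3 to 13 and MSLN 46 to 100. Among 8 markers of other cells, CD3E had 0 to 4 counts, CD68 0 to 1, PDGFRB 0 to 6, COL3A1 0 to 12, PECAM1 3 to 18, PTPRC 4 to 26, CDH5 50 to 200 and COL1A1 173 to 924. Their summed normalized count was 358 to 384 in the scr control, 664 to 965 with shMPZL3 #1 and 543 to 664 with shMPZL3 #2. Most of that sum was COL1A1, and the other 7 markers summed to 87.8 to 126 in the scr control, 90.8 to 106 with shMPZL3 #1 and 178 to 221 with shMPZL3 #2.

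PEG10 was the gene of the neighbourhood that differed most from the control. It had 5095, 4905 and 5006 normalized counts in the scr control, 2803, 2212 and 1914 with shMPZL3 #1, and 1413, 1246 and 1115 with shMPZL3 #2. The 3 groups did not overlap. The control libraries lay within a narrow range (5002 ± 95.3, SD, n = 3), whereas the coefficient of variation was 19.6% with shMPZL3 #1 (2310 ± 452, n = 3) and 11.9% with shMPZL3 #2 (1258 ± 149, n = 3). The means stood at 46.2% and 25.2% of the control. On the log2 scale the fitted differences from the scr control were -1.11 (SE 0.13) for shMPZL3 #1, -1.99 (SE 0.13) for shMPZL3 #2 and -1.49 (SE 0.23) for the 6 knockdown libraries together. These values are those on which PEG10 was chosen. In the grouped comparison it was in place 43 among the differences of 16928 genes tested, ordered from the most negative, and in place 1 among the 1506 genes with an average expression at least as high. With shMPZL3 #1 alone, it was in place 323 of all genes and in place 4 of the 1506.

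The hairpins themselves were compared directly, a contrast without control libraries that was not used to choose PEG10. PEG10 was lower with shMPZL3 #2 than with shMPZL3 #1 by a log2 difference of -0.88 (SE 0.13; 95% interval -1.15 to -0.61; edgeR quasi-likelihood test, adjusted p = 0.000242), a 1.84-fold difference. All 3 shMPZL3 #2 libraries were below all 3 shMPZL3 #1 libraries, and a 2-sided exact permutation test gave p = 0.1, the smallest that 3 against 3 libraries allow. MPZL3 went the other way in the same contrast, with a log2 difference of 1.28 (SE 0.16; edgeR adjusted p = 5.72e-05), so that the hairpin with the lower MPZL3 count was the one with the higher PEG10 count. Of the 5 genes of the neighbourhood that were tested, PEG10 was the 1 called in this contrast. Among all genes 7.56% were called lower and 7.56% higher.

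**Figure D1:**
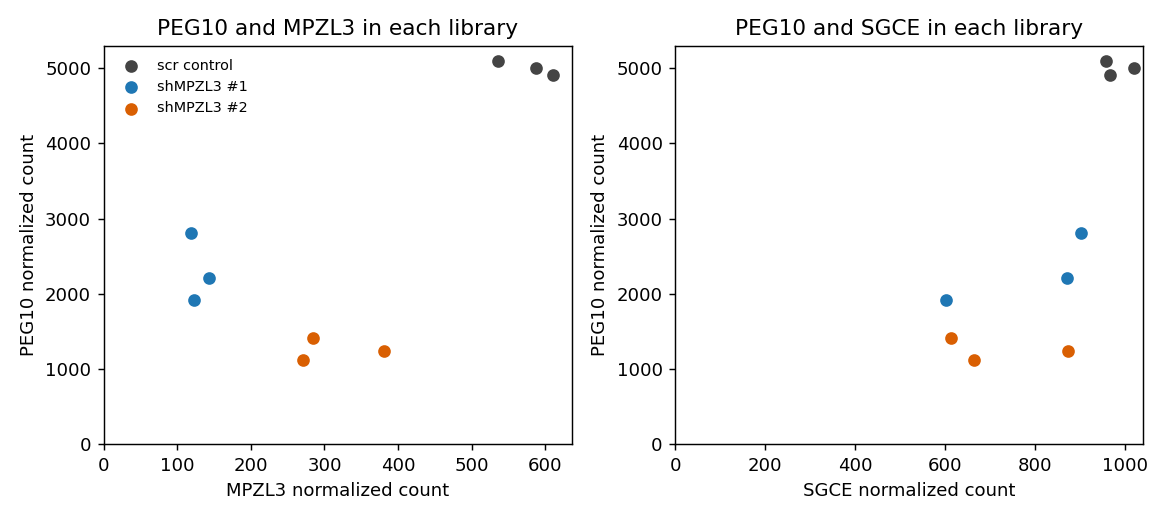
Normalized count of PEG10 (vertical axis) against that of MPZL3 (left) and SGCE (right) in each of the 9 libraries, coloured by group. The scr control libraries are at the top right of both panels, and the shMPZL3 #2 libraries (PEG10 at 1115 to 1413) lie below the shMPZL3 #1 libraries (1914 to 2803) although their MPZL3 counts are higher.

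SGCE, the divergent partner of PEG10, differed from the control by much less. Its normalized counts were 957, 966 and 1019 in the scr control, 903, 870 and 602 with shMPZL3 #1, and 613, 873 and 664 with shMPZL3 #2. Each of the 6 knockdown libraries was below each control library, while the hairpins overlapped with each other. The share of all genes that separate from the control in this way was not counted. The means were 981 ± 33.3, 792 ± 165 and 717 ± 138 (SD, n = 3 each), or 80.7% and 73.1% of the control. In edgeR's quasi-likelihood test the log2 difference of the grouped knockdown was -0.38 (SE 0.14; 95% interval -0.68 to -0.07; adjusted p = 0.0852), and SGCE was not called. With shMPZL3 #2 it was -0.45 (SE 0.15; edgeR adjusted p = 0.0516) and with shMPZL3 #1 -0.31 (SE 0.15; edgeR adjusted p = 0.13), neither of which was called. The difference with shMPZL3 #2 was called under RLE normalization (edgeR adjusted p = 0.0482), without a filter on low counts (edgeR adjusted p = 0.00662) and by DESeq2 (adjusted p = 0.0297), and also when shMPZL3 #1 replicate 2 (edgeR adjusted p = 0.0449), shMPZL3 #1 replicate 3 (edgeR adjusted p = 0.0191) or shMPZL3 #2 replicate 2 (-0.62, edgeR adjusted p = 0.00783) was left out. The grouped difference was also called in the mean of the hairpins in the 3-group fit (edgeR adjusted p = 0.0359) and without a filter on low counts (edgeR adjusted p = 0.0482). With the replicate number as a block, SGCE was called with shMPZL3 #1 (edgeR adjusted p = 0.0495) and shMPZL3 #2 (edgeR adjusted p = 0.0104). A 2-sided exact permutation test of the grouped comparison gave p = 0.0238, where 0.0119 is the smallest possible.

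The ratio of PEG10 to SGCE counts in the same library does not depend on library size. It was 5.32, 5.08 and 4.91 in the scr control, 3.11, 2.54 and 3.18 with shMPZL3 #1, and 2.30, 1.43 and 1.68 with shMPZL3 #2. The means were 5.10 ± 0.21, 2.94 ± 0.35 and 1.80 ± 0.45 (SD, n = 3 each), and no group overlapped another. Because PEG10 was picked for its fall, the difference of its ratios from the control is a description only. The ratio of PEG10 to CASD1 was 6.74 ± 0.50, 2.74 ± 0.89 and 2.06 ± 0.56, and on this ratio the 2 hairpins overlapped. PEG10 had 24093 counts over the 9 libraries against 7334 for SGCE. How the counting treated reads in the 219 shared bases is not given in the sources used here. When the counts of both genes were added together, the log2 difference of the sum was -1.24 for the grouped knockdown and -1.60 for shMPZL3 #2.

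The other expressed neighbours overlapped between knockdown and control. CASD1 had 826, 705 and 707 normalized counts in the scr control, 744, 1030 and 826 with shMPZL3 #1, and 542, 834 and 540 with shMPZL3 #2. PPP1R9A had 894, 897 and 832 in the scr control, 912, 923 and 1078 with shMPZL3 #1, and 766, 840 and 761 with shMPZL3 #2. All 3 of its shMPZL3 #1 libraries were above all 3 control libraries. A 2-sided exact permutation test of these gave p = 0.1, the smallest possible, and the share of all genes that separate in this way was not counted. For PON2 the values were 2359, 2675 and 2879 in the scr control, 2626, 3214 and 2459 with shMPZL3 #1, and 2155, 2813 and 2162 with shMPZL3 #2. In CASD1 and PON2, 1 library of each hairpin (replicate 2 of both) stood above the other libraries of its group. The grouped log2 differences were 0.01 for CASD1 (95% interval -0.38 to 0.41), 0.01 for PPP1R9A (-0.24 to 0.26) and -0.04 for PON2 (-0.32 to 0.24), with edgeR adjusted p-values of 0.973, 0.970 and 0.880. The sign of these small values changed for CASD1 when the mean of both hairpins was taken and, for all 3 genes, when some single libraries were left out.

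In the main fits (TMM, default filter, no replicate block), edgeR called none of the 4 tested neighbours against the scr control. The settings and left-out libraries that did call SGCE or CASD1 are given with those genes. At an unadjusted p under 0.05, SGCE was the 1 gene below that limit in the grouped comparison and with shMPZL3 #2, 0 were below it with shMPZL3 #1, and DESeq2 called SGCE with shMPZL3 #2 and no other. Over all genes the share of all genes called was 15.8% for the grouped knockdown, 32% for shMPZL3 #1 and 15.2% for shMPZL3 #2. The values of CASD1, PPP1R9A and PON2 were on opposite sides of 0 for the hairpins, at 0.22, 0.15 and 0.07 with shMPZL3 #1 and -0.23, -0.15 and -0.15 with shMPZL3 #2. Directly compared, shMPZL3 #2 was below shMPZL3 #1 by -0.44 for CASD1 (SE 0.16; 95% interval -0.78 to -0.10; edgeR adjusted p = 0.0731) and by -0.30 for PPP1R9A (SE 0.10; 95% interval -0.52 to -0.08; edgeR adjusted p = 0.0619). Neither was called, but both were by DESeq2 (adjusted p = 0.0464 for CASD1 and 0.0468 for PPP1R9A). Both were also called with the replicate number as a block (edgeR adjusted p = 0.0121 for CASD1 and 0.0355 for PPP1R9A). CASD1 was also called without a filter on low counts (edgeR adjusted p = 0.00978), and PPP1R9A under upper-quartile normalization (edgeR adjusted p = 0.0437) and with at least 10 counts in every library (edgeR adjusted p = 0.041). Without shMPZL3 #1 replicate 1, both were called (CASD1 -0.55, edgeR adjusted p = 0.0391; PPP1R9A -0.35, edgeR adjusted p = 0.0429), and without shMPZL3 #2 replicate 2 the CASD1 difference was -0.68 (edgeR adjusted p = 0.00372). That same library also decided the CASD1 difference between shMPZL3 #2 and the scr control, which was -0.47 without it (edgeR adjusted p = 0.0292). The difference in PON2 was -0.22 (95% interval -0.49 to 0.05; edgeR adjusted p = 0.267).

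**Figure D2:**
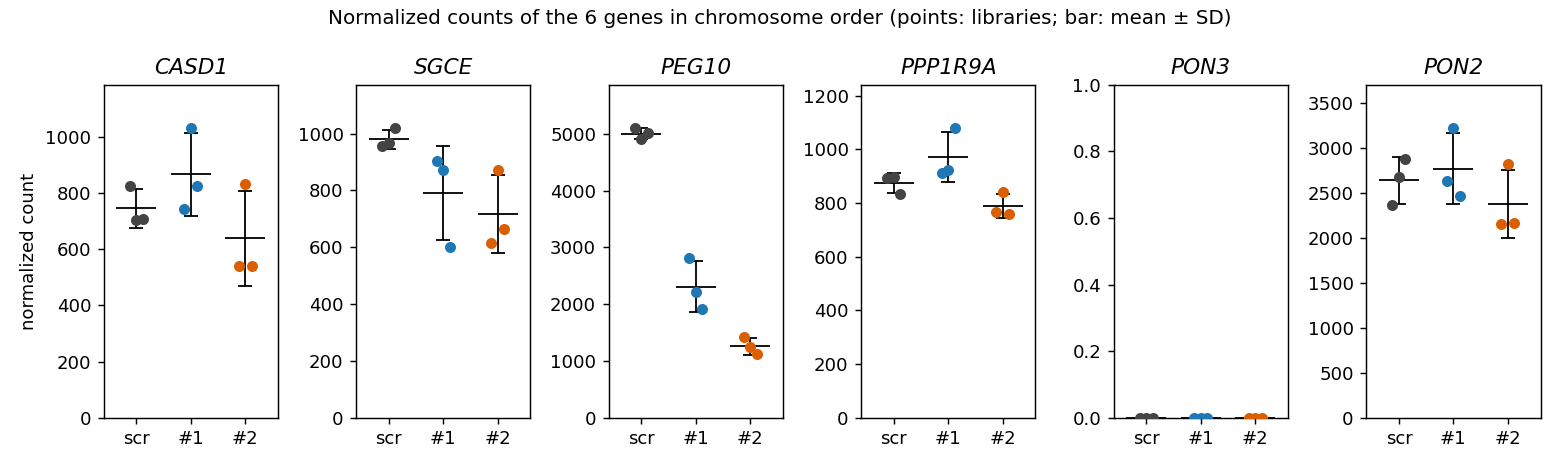
Normalized counts of the 6 genes in chromosome order, with 1 point per library, and the mean ± SD of the 3 libraries of each group (scr, scr control; #1, shMPZL3 #1; #2, shMPZL3 #2). Each panel has its own vertical axis from 0. PEG10 separates into 3 groups, SGCE lies below the control in all 6 knockdown libraries, and CASD1 and PON2 overlap with the control. PPP1R9A overlaps with the control for shMPZL3 #2 and lies above it in all 3 shMPZL3 #1 libraries.

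PON3 was listed at 0 counts in every library, although its paralog PON2 lies next to it. A count of 0 allows up to 3 counts per library, or 0.108 to 0.199 CPM, and this limit covers counting error only. PON1, the remaining member of the paraoxonase family, had 0 to 6 counts and was not tested. Levels between genes were compared per kb of exon. In the scr control, PEG10 reached 748 ± 14.3 normalized counts per kb (SD, n = 3), above 92.6% of the genes tested, and PON2 686 ± 68.2, ranges that do not separate beyond their spread. CASD1 followed at 141 ± 13.2, PPP1R9A at 78.4 ± 3.29 and SGCE at 47.0 ± 1.59. With shMPZL3 #2, PON2 was at 618 ± 98.3 and PEG10 at 188 ± 22.3 normalized counts per kb, so that PEG10 was below PON2 and above CASD1 (121 ± 32.1). The exon union of SGCE is long (20884 bases), which lowers its value on this scale.

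Within 1 Mb of either end of PEG10 the table held 37 further genes, of which 9 passed the filter. In the grouped comparison, 0 of the 9 were called by edgeR (9.36% of all genes were called higher and 6.4% lower). At an unadjusted p under 0.05, 3 were below that limit, COL1A2, AC002074.1 and BET1, and COL1A2 was called by DESeq2 (adjusted p = 0.0181). COL1A2 and AC002074.1 were called when shMPZL3 #2 replicate 1 (edgeR adjusted p = 0.0439 and 0.0331) or replicate 2 (edgeR adjusted p = 0.0231 and 0.0486) was left out, BET1 without shMPZL3 #2 replicate 2 (edgeR adjusted p = 0.0469) and TFPI2 without shMPZL3 #1 replicate 3 (edgeR adjusted p = 0.0466). Without a filter on low counts, COL1A2 and TFPI2 were called (edgeR adjusted p = 0.00251 and 0.0435). TFPI2, a serine protease inhibitor gene whose mouse counterpart is imprinted in the placenta, had 6745, 7136 and 7310 normalized counts in the scr control, 8481, 7689 and 6028 with shMPZL3 #1, and 12133, 12123 and 9275 with shMPZL3 #2. It rose with shMPZL3 #2 (log2 fold change 0.66, SE 0.13, edgeR adjusted p = 0.00194) and was higher there than with shMPZL3 #1 (0.59, SE 0.13, edgeR adjusted p = 0.0047), the reverse of the order of PEG10. The values with shMPZL3 #1 overlapped with the control (0.07, edgeR adjusted p = 0.728).

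COL1A2, which encodes a chain of type I collagen, had 49.2, 55.7 and 53.6 normalized counts in the scr control, 139, 134 and 218 with shMPZL3 #1, and 65.8, 48.7 and 91.7 with shMPZL3 #2. It rose with shMPZL3 #1 (log2 fold change 1.63, SE 0.26, edgeR adjusted p = 0.000219), was not called with shMPZL3 #2 (0.39, edgeR adjusted p = 0.368), and differed between the hairpins (-1.24, SE 0.25, edgeR adjusted p = 0.0032). COL1A1, a partner chain counted among the markers of other cells, had mean normalized counts of 265, 688 and 409 in the 3 groups, and the part of the marker genes in this result was not tested. The low-count gene AC002074.1, on the strand opposite COL1A2, was also called with shMPZL3 #1 (1.3 to 2.8 normalized counts in the control, 11.3 to 15.6 with shMPZL3 #1), except without scr control replicate 1 (edgeR adjusted p = 0.056) or replicate 3 (edgeR adjusted p = 0.0518). GNG11, a G protein gamma subunit gene, had 2836, 3148 and 2959 normalized counts in the scr control, 3193, 2774 and 2275 with shMPZL3 #1, and 2212, 2334 and 2117 with shMPZL3 #2. It fell with shMPZL3 #2 (-0.43, SE 0.11, edgeR adjusted p = 0.0176), but it was not called when scr control replicate 2 (edgeR adjusted p = 0.0885) or shMPZL3 #2 replicate 3 (edgeR adjusted p = 0.104) was left out. BET1, a SNARE of the Golgi, was at 82.4% and 82.0% of the control and was not called (grouped log2 difference -0.28, edgeR adjusted p = 0.109). With either hairpin BET1 was called when shMPZL3 #2 replicate 2 was left out (edgeR adjusted p = 0.0457 for shMPZL3 #1 and 0.0193 for shMPZL3 #2), and with shMPZL3 #1 also without its replicate 2 (edgeR adjusted p = 0.0389). Thus 2 of the 9 genes were called higher with shMPZL3 #1 (16.8% of all genes), and 1 higher and 1 lower with shMPZL3 #2 (9.36% and 5.8% of all genes). GNGT1, AC002076.1, AC006378.1 and PDK4, at 66.9 normalized counts or fewer in every library, were called in none of the 4 comparisons. Over the 871 tested genes of chromosome 7, 8.27% were called higher and 4.94% lower in the grouped comparison, with a median log2 difference of 0.05, beside 0.02 for all genes tested.

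**Figure D3:**
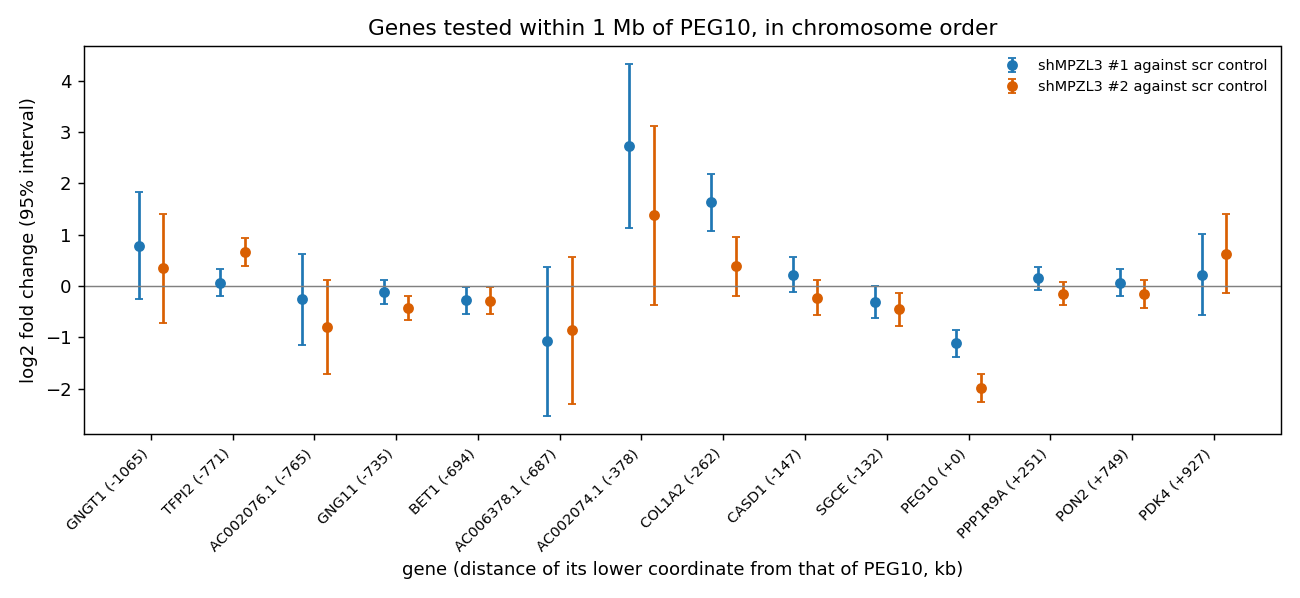
Log2 fold change against the scr control (vertical axis, with 95% intervals from the edgeR fit) of the 14 genes tested within 1 Mb of PEG10, in chromosome order, for shMPZL3 #1 and shMPZL3 #2. Numbers after the names give the distance in kb between the lower coordinates of the gene and PEG10. PEG10 is at -1.11 and -1.99, SGCE at -0.31 and -0.45, and the next genes on either side, CASD1 and PPP1R9A, have intervals that include 0.

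Other imprinted genes were taken as a list of 35 symbols from other loci, which matched 36 rows because IGF2 stands for 2 of them. Of these, 20 were tested and 4 were called in the grouped comparison, 1 higher and 3 lower (9.36% and 6.4% of all genes). The median log2 difference of the 20 was 0.06. KCNQ1OT1, the long non-coding RNA of the KCNQ1 locus, fell, with mean normalized counts of 872 in the scr control, 506 for shMPZL3 #1 and 463 for shMPZL3 #2 (grouped log2 fold change -0.85, edgeR adjusted p = 0.00175). MEST, a hydrolase-like gene and, like PEG10, a paternally expressed gene of chromosome 7, fell from 2556 to 1347 and 1859 (-0.67, edgeR adjusted p = 0.00923), but it was not called when scr control replicate 1 was left out (edgeR adjusted p = 0.0711). Its order between the hairpins, lower with shMPZL3 #1, was that of MPZL3 and not that of PEG10 (log2 difference of shMPZL3 #2 and shMPZL3 #1 0.46, edgeR adjusted p = 0.00815).

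SNURF, whose exonic bases are shared with SNRPN over 69.3% of their length, fell from 56.2 to 26.8 and 22.8 mean normalized counts (-1.18, edgeR adjusted p = 0.0116), while SNRPN was at 119, 123 and 120 and the split of reads between them is uncertain. The call on SNURF was lost without scr control replicate 1 (edgeR adjusted p = 0.0647) or replicate 2 (edgeR adjusted p = 0.0806). PHLDA2, a growth-restraining placental gene expressed from the maternal allele, rose (0.46, edgeR adjusted p = 0.0425), and its call was lost without scr control replicate 1 (0.34) or 2, any shMPZL3 #1 library, or shMPZL3 #2 replicate 3 (edgeR adjusted p of 0.052 to 0.235). With shMPZL3 #1, 3 of the 20 genes were called higher and 3 lower, beside 16.8% and 15.3% of all genes. With shMPZL3 #2 these counts were 1 and 3, beside 9.36% and 5.8% of all genes. Between the hairpins, 2 were called higher and 0 lower with shMPZL3 #2 by edgeR, beside 7.56% of all genes either way (2 lower at an unadjusted p under 0.05, and 1 by DESeq2, GNAS, named after its values were seen).

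Genes that maintain imprints or write and remove DNA methylation numbered 12 tested of 13. In the grouped comparison 1 rose and 1 fell, counts near the shares over all genes (9.36% higher and 6.4% lower), with a median log2 difference of -0.17. ZFP57, the zinc finger protein that binds methylated imprinted control regions, rose from a mean of 6.24 normalized counts to 55.9 with shMPZL3 #1 and 18.3 with shMPZL3 #2 (grouped 2.53, edgeR adjusted p = 0.0271), and its call was lost without any 1 of the control libraries (edgeR adjusted p of 0.0966 to 0.0989). CTCF, the insulator protein, fell (-0.37, edgeR adjusted p = 0.0385), a call lost without any 1 of the control libraries or without shMPZL3 #1 replicate 1 or 3 (edgeR adjusted p of 0.0596 to 0.149). The hairpins differed on this list. With shMPZL3 #1, 7 of the 12 were called lower (15.3% of all genes), against 0 of 12 with shMPZL3 #2 (5.8% of all genes; 2 at an unadjusted p under 0.05, and 0 by DESeq2). The direct comparison called 4 of the 12 higher and 2 lower with shMPZL3 #2 (7.56% of all genes each way). DNMT3B, a de novo DNA methyltransferase gene named after its values were seen, was at 723, 535 and 1021 mean normalized counts in the 3 groups (log2 difference of shMPZL3 #2 and shMPZL3 #1 0.93, edgeR adjusted p = 6.46e-05).

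PEG10 belongs to a family of genes derived from retrotransposon gag sequences, and 14 of 22 others in that list were tested. Of these, 3 rose and 0 fell in the grouped comparison (9.36% and 6.4% of all genes; 0 lower at an unadjusted p under 0.05 and 0 by DESeq2), with a median log2 difference of 0.22. RTL8C, a close sequence relative of RTL8A and RTL8B whose reads may be shared with them, went from a mean of 2049 normalized counts to 3265 and 2712 (0.54, edgeR adjusted p = 0.0114). Its call was lost without scr control replicate 1 or 2 (edgeR adjusted p of 0.0957 and 0.0565). PNMA1, a paraneoplastic antigen gene, went from 1082 to 1493 and 1385 (0.41, edgeR adjusted p = 0.0138), a call lost without any 1 of the control libraries (edgeR adjusted p of 0.053 to 0.0875). RTL5 went from 138 to 393 and 191 (1.09, edgeR adjusted p = 0.0357), a call lost without any 1 of the control libraries or without shMPZL3 #1 replicate 1 or 2 (edgeR adjusted p of 0.054 to 0.136).

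Among regulators and partners of PEG10, 1 of 8 tested genes was called in the grouped comparison, near the 15.8% of all genes called in either direction. With shMPZL3 #1, 1 of the 8 was called higher and 2 lower, beside 16.8% and 15.3% of all genes. With shMPZL3 #2, 3 were called higher and 0 lower, beside 9.36% and 5.8% of all genes (0 lower at an unadjusted p under 0.05 and 0 by DESeq2). SIAH2, a ubiquitin ligase gene, rose from a mean of 1162 normalized counts to 1568 and 1623 (0.46, edgeR adjusted p = 0.00368), and it remained called with each library left out in turn. MYC and E2F1, transcription factors known to bind the PEG10 promoter, were named after their values were seen. MYC had mean normalized counts of 1349, 1011 and 1904 in the scr control, shMPZL3 #1 and shMPZL3 #2, and E2F1 1807, 1663 and 2279. Against the control, MYC was called lower with shMPZL3 #1 (-0.42, edgeR adjusted p = 0.00701) and higher with shMPZL3 #2 (0.50, edgeR adjusted p = 0.0041). MYC and E2F1 were both higher with shMPZL3 #2 than with shMPZL3 #1, by log2 differences of 0.91 (edgeR adjusted p = 3.79e-05) and 0.45 (edgeR adjusted p = 0.00899), whereas PEG10 was lower. The call on E2F1 was lost without shMPZL3 #2 replicate 1 (edgeR adjusted p = 0.0505) or replicate 3 (edgeR adjusted p = 0.0552).

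The partner genes of the neighbours were also counted. In the sarcoglycan and dystroglycan complex, 11 of 14 genes were tested. In the grouped comparison 1 rose and 1 fell, counts near the shares over all genes (9.36% higher and 6.4% lower), with a median log2 difference of 0.21. With shMPZL3 #1, 4 of the 11 were called higher and 0 lower, beside 16.8% and 15.3% of all genes (1 lower at an unadjusted p under 0.05 and 0 by DESeq2). With shMPZL3 #2, 1 was called higher and 1 lower, beside 9.36% and 5.8% of all genes. SGCB, which encodes beta-sarcoglycan, went from a mean of 251 normalized counts to 192 and 158 (-0.52, edgeR adjusted p = 0.0407), a call lost in 6 of the 9 fits with 1 library left out, those without any 1 of the control libraries, shMPZL3 #1 replicate 1, or shMPZL3 #2 replicate 1 or 3 (edgeR adjusted p of 0.0663 to 0.127). It was also lost under upper-quartile normalization, without a filter and with at least 10 counts in every library (edgeR adjusted p of 0.051 to 0.0565). DTNA, the dystrobrevin alpha gene, went from 14.7 to 50.8 and 30.5 (1.51, edgeR adjusted p = 0.0373), and this call was lost without scr control replicate 1 or 2 (1.04 without replicate 2) or any 1 of the shMPZL3 #1 libraries (edgeR adjusted p of 0.0547 to 0.15). In the sialic acid pathway, in which CASD1 modifies the end product, all 6 genes were tested and 1 was called, beside 15.8% of all genes. This was NANS, the sialic acid synthase, going from 1193 to 1655 and 1474 (0.39, edgeR adjusted p = 0.0203), and this was lost without any 1 of the control libraries (edgeR adjusted p of 0.0544 to 0.122). NANS shares 8.57% of its exonic bases with TRIM14 on the opposite strand. Of the catalytic subunits of protein phosphatase 1 and the neurabin relative PPP1R9B, 0 of 4 were called by edgeR in the grouped comparison and 0 by DESeq2, while 2 (PPP1CB and PPP1CC, both lower and named after their values were seen) had an unadjusted p under 0.05.

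**Figure D4:**
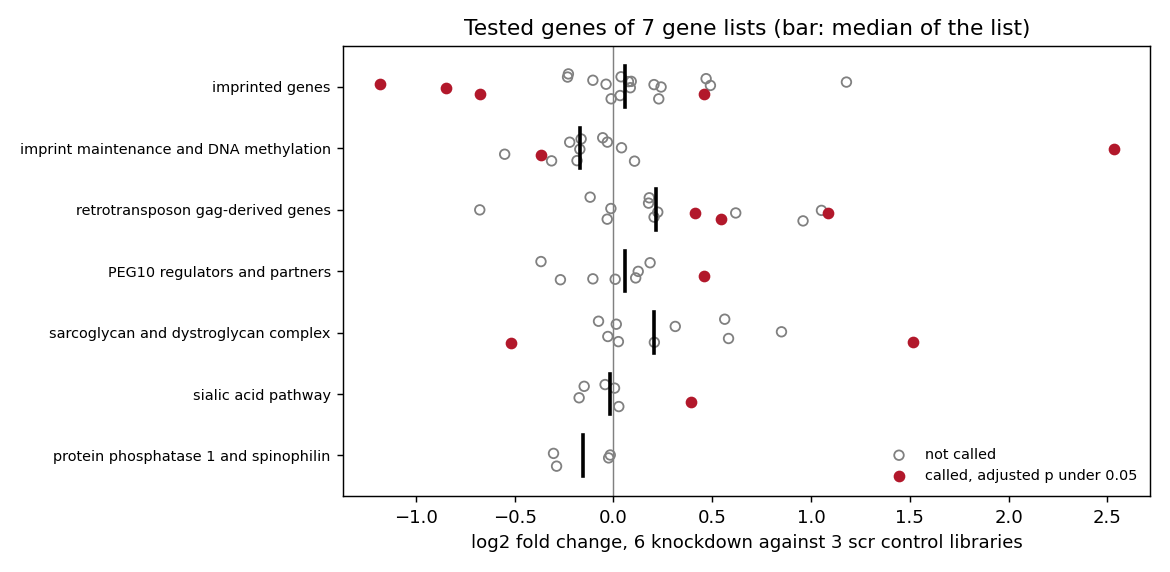
Grouped log2 fold change (6 knockdown against 3 scr control libraries, horizontal axis) of each tested gene in the 7 gene lists. Filled points were called by edgeR at an adjusted p under 0.05, open points were not, and black bars are list medians. Medians lie between -0.17 (imprint maintenance) and 0.22 (gag-derived genes), and the called imprinted genes are on both sides of 0.

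The genes whose pattern over the 9 libraries was most like that of PEG10 were found by Pearson correlation of log2 CPM among 11916 protein-coding genes. Those described here are GRHL2 (r = 0.988), RHEX (r = 0.986), GOLIM4 (r = 0.981) and TGFBR2 (r = 0.978), and none of the 4 lies on chromosome 7. These values describe 9 libraries in 3 groups, which share the difference between groups. By Spearman correlation, GRHL2 and GOLIM4 were in place 2, TGFBR2 in place 58 and RHEX in place 84. In these 4 genes the order of the means was scr control, shMPZL3 #1, shMPZL3 #2, with smaller differences than in PEG10. They were picked for following PEG10 over the same libraries, so the shared order is no separate result. GRHL2, an epithelial transcription factor gene, had mean normalized counts of 1327 ± 4.69, 1175 ± 18.5 and 1063 ± 47.0 (SD, n = 3 each). TGFBR2, a TGF-beta receptor gene, had 3997 ± 126, 3156 ± 183 and 2524 ± 135. GOLIM4, a Golgi membrane protein gene, had 2954 ± 184, 2197 ± 159 and 1571 ± 37.1. RHEX had 629 ± 14.8, 483 ± 30.3 and 395 ± 17.4, and it shares 19.3% of its exonic bases with BX571818.1 on the same strand. Within the neighbourhood, the correlation with PEG10 was 0.74 for SGCE, 0.32 for PON2, 0.30 for PPP1R9A and 0.29 for CASD1.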

How the data were processed

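RNA-seq of 9 OVCAR4 libraries was analysed. Per the labels, poly-A RNA was made into non-directional libraries. The submitters' processing notes name HISAT2 2.0.5, featureCounts 1.5.0-p3 and hg38, and the authors deposited unnormalized read counts for each gene in each library. Settings for reads in overlapping genes or at several positions are not given in the sources used here. The members and gene lists were chosen with earlier results of these data known. All 58735 genes matched GENCODE 29 (Ensembl 94) in identifier, position and name. Counts were tested with edgeR 4.0.16 in R 4.3.3 (filterByExpr, 16928 genes; TMM; 2-sided quasi-likelihood tests; Benjamini-Hochberg adjustment over all genes tested; called at 0.05), in a fit of 6 knockdown against 3 control libraries and in a fit of 3 groups. Standard errors and 95% intervals are from these fits. Log2 CPM used a prior count of 2. Exact permutation tests used scipy 1.17.1. The edgeR fits with TMM and the default filter were tested on simulated counts with no difference between the hairpins. The other steps were not tested in this way. The methods describe 3 biological replicates per group, and the labels number them without naming cultures, so p-values measure the spread between these libraries. The chi-square per gene between replicates was 3.1 to 23.4, more than counting error alone gives. It cannot tell separate cultures from separate preparations of the same culture. The 3 groups share the control libraries. Alternatives were RLE and upper-quartile normalization, other filters, a replicate block, DESeq2 1.42.0, the mean of both hairpins, a prior count of 0.5, PEG10 and SGCE summed, and each library left out. Named genes were the members, MPZL3, tested genes within 1 Mb of PEG10, list genes called in the grouped comparison, the 5 genes most like PEG10 among those at or above an average log2 CPM of 1, and overlapping genes. A result that these rules include is not reported here. Sequences were taken from GENCODE 29 transcripts and RefSeq promoters (GRCh38.p14). Libraries of other cell lines were not used here.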

Additional observations from a re-analysis of the deposited data

Results flagged for a closer look

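The effect on PEG10 differed between the hairpins: the log2 difference of shMPZL3 #2 and shMPZL3 #1 was -0.88 (edgeR adjusted p = 0.000242; lower in 3 of 3 shMPZL3 #2 libraries than in all shMPZL3 #1 libraries). Over the alternatives its adjusted p was 1.27e-12 to 0.00282, and it was called in 16 of 16. These alternatives include the sum of PEG10 and SGCE counts, whose value is not that of PEG10 alone. The knockdown libraries compared were also used to choose PEG10. Other named genes also differed between the hairpins in the same test. MPZL3 (1.28), TFPI2 (0.59), MEST (0.46), CTCF (0.31), DNMT3B (0.93), E2F1 (0.45) and MYC (0.91) were higher with shMPZL3 #2, and COL1A2 (-1.24), ZFP57 (-1.63) and RTL5 (-1.04) were lower, with edgeR adjusted p-values of 3.79e-05 (MYC) to 0.0343 (CTCF).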

How the results depend on the processing

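PEG10 stayed lower than the control under every alternative run, which describes the fall it was picked for and tests nothing. Its difference between the hairpins stayed called. That contrast was not used to choose PEG10, but its knockdown libraries were. The value moved most when PEG10 and SGCE counts were summed (-1.24 grouped, -1.60 for shMPZL3 #2), but this is the value of the sum and not of PEG10 alone. The replicate numbers are not stated to pair the cultures: deviations from the group means correlated at -0.00143 to 0.218 for the same number (9 pairs) and -0.147 to 0.0671 for different numbers (18 pairs). Between shMPZL3 #1 and shMPZL3 #2 libraries they were 0.137, 0.218 and 0.0966 for the same number, and -0.147 to 0.00376 for different numbers. The main fits did not pair the libraries. With the replicate number as a block, SGCE was called with shMPZL3 #1 (-0.32, edgeR adjusted p = 0.0495) and shMPZL3 #2 (-0.46), CASD1 (-0.45) and PPP1R9A (-0.30) between the hairpins, CASD1 grouped was -0.011, and calls numbered 1597 lower with shMPZL3 #2 and 2015 higher between the hairpins, against 982 and 1279 without the block. The grouped calls on CTCF, RTL5 and DTNA were lost with it (edgeR adjusted p of 0.0564 to 0.0576), BET1 was called with either hairpin, and GNG11 between them. Without a filter on low counts, SGCE was called grouped (-0.38, edgeR adjusted p = 0.0482) and with shMPZL3 #2 (-0.45), and CASD1 between the hairpins (-0.44). The mean of both hairpins gave -0.38 for SGCE, -0.0041 for CASD1, and 2479 genes higher and 2198 lower, against 1584 and 1083. SGCE with shMPZL3 #2 was -0.46 under RLE and DESeq2. Between the hairpins DESeq2 gave -0.44 for CASD1 and -0.30 for PPP1R9A, and PPP1R9A was also called under upper-quartile normalization (-0.33) and with at least 10 counts in every library (-0.32). The causes were not tested.

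With 1 library left out, the log2 difference of SGCE with shMPZL3 #2 was -0.62 to -0.37. CASD1 was -0.10 to 0.11 grouped, -0.47 to -0.10 with shMPZL3 #2 and -0.68 to -0.30 between the hairpins. PPP1R9A was -0.055 to 0.068 grouped and -0.35 to -0.22 between the hairpins, and PON2 -0.12 to 0.028 grouped and -0.053 to 0.15 with shMPZL3 #1. TFPI2 (-0.020 to 0.20) and GNG11 (-0.22 to 0.0015) with shMPZL3 #1, and BET1 (-0.14 to 0.088) and AC006378.1 (-0.79 to 0.65) between the hairpins, also changed sign, as did MYC grouped (-0.0048 to 0.21). Genes called numbered 453 to 1771 higher and 172 to 1466 lower grouped, 1689 to 2824 lower with shMPZL3 #1, 910 to 1732 higher and 354 to 1388 lower with shMPZL3 #2, and 667 to 1521 higher and 798 to 1432 lower between the hairpins. Counting error weighs most on the genes with few counts, such as ZFP57, SNURF, DTNA and AC002074.1.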
